A study of Zea mays with 45 samples.

Results

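A set of 31 probe sets of the Affymetrix maize array, each a reading of a leaf transcript, stood high in the growing leaf base after the night had been extended by 14 h and was back near or below its end-of-night level after 24 h. They are 31 of 17555 probe sets, or 0.177%, and were chosen by their own values. A member had a 14 h mean at least 1.5 above the end-of-day mean, and a 24 h mean at most 0.5 above the end-of-night mean, on the log2 scale, in both the division zone and the elongation zone. Its 6 h mean also had to lie less than 1 above the end-of-night mean in at least 1 of 3 zones. The division and elongation zone values below therefore describe the choice, and no test is given for them. Tests are given for the mature zone, whose 14 h, 24 h and end-of-day arrays the choice did not use.

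When the night is extended, leaves exhaust the starch laid down in the light, and plants then turn to breaking down protein, lipid and other reserves. A grass leaf grows from its base, where cells divide, then elongate, and are displaced upward until they mature into photosynthetic tissue. The base takes carbon from the older leaf, so the same darkness reaches dividing, elongating and mature cells in different states.

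Plants of the genotype SL (KWS, Einbeck) were kept on 14 h light and 10 h dark, per the labels. Leaves were sampled when the light went off (end of the day), when the dark period closed (end of the night), and once the night had been prolonged by 6, 14 or 24 h. Those 3 extensions amount to 16, 24 and 34 h of darkness in all. The end of the day and the 14 h extension thus fall at the same clock hour, as do the 24 h extension and the end of the night. The division zone lay 0 to 1.5 cm above the ligule, the elongation zone 3 to 4.5 cm above it, and the third zone is labelled as mature leaf. Replicates were pools of 5 plants, the spread between arrays is thus that between pools, and every group was the same genotype. Each of the 15 groups had 3 arrays, except the end of day in the elongation and mature zones and the 6 h group of the mature zone, which had 2.

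Array medians ran from 7.57 to 7.68 for the division zone, from 7.56 to 7.66 for the elongation zone and from 7.37 to 7.50 for the mature zone. Among the mature zone arrays of the normal night's end, replicate 3 gave the lowest of the 3 values for 52.5% of all probe sets, so it stood apart from the other 2, and its summed base markers, described next, were 10.63 against 9.17 and 9.18. The zones were checked with marker genes, of which 7 of 8 mature leaf genes and 5 of 6 base genes had a probe set. The summed signal of the mature markers, on the log2 scale, was 10.07 to 10.37 in the division zone at 14 h against 10.34 to 10.43 at the end of the day. For the elongation zone it was 11.25 to 11.52 at 14 h against 11.58 to 11.60, and for the mature zone 16.20 to 16.23 against 16.40 to 16.42. These sums, which the brightest genes carry, were no higher at 14 h in either growing zone, but 4 of the 7 mature markers had a higher mean there in each, the most for the photosystem gene psan1 in the elongation zone, at 9.48 against 8.57. The summed base markers were 12.08 to 12.15 at 14 h in the division zone, below the 12.34 to 12.41 of the end of the day, and 11.41 to 11.47 against 11.69 to 11.74 in the elongation zone. In the division zone the replication gene pcna1 was lower, at 9.62 against 11.31, while the cell cycle gene cdc2 was higher, at 11.41 against 10.85. The cell cycle gene cyc3, at 9.75 against 9.66, overlapped between the times. In the elongation zone pcna1, at 7.85 against 10.48, and cyc3, at 8.78 against 9.28, were lower. There cdc2 was higher, at 10.99 against 10.29. In the mature zone the base sum was higher, at 9.94 to 10.27 against 8.87 to 9.03, with all 5 markers higher by 0.16 to 1.62, the most for cdc2, at 9.43 against 7.81. The part of these markers in the members' values was not tested. The knox genes kn1 and lg3 among them, which mark the meristem, lay below the dim level described below in every group. In the mature zone cyc3 was dim too, at 4.57 at the end of the day and 5.23 at 14 h. Of the base markers only cdc2 and pcna1, at 8.18 against 7.49, could be read there at these times. In bulk tissue, fewer cells of a type and less RNA per cell cannot be told apart.

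A probe set was called dim where its mean lay under 6.19, the 95th percentile of 66 reporter and selection gene probe sets that have no maize target. Probe set names carry the sequence cluster they were built from, and the 31 members come from 28 clusters. Cluster Zm.9389 gave 4 of them, whose values over the 42 arrays correlated between 0.981 and 0.995, so they are repeated readings of closely related sequence. An ending in _a_at or _x_at marks a probe set whose probes can match several transcripts of a gene, or other sequences too. Only 1 member has a gene symbol in the array annotation, Zm.144.1.S1_x_at, which is LOC542475 with the synonym mtl2. The other 30 have none, and no function is given for them here. The annotation names a single gene for 1452 probe sets, or 8.27%. Lists of named genes could therefore match no member but mtl2, which was not among the 239 probe sets of 12 lists of named genes for the clock, sugar and starch metabolism, amino acid and fatty acid breakdown, trehalose signalling, drought, defence, redox, cell wall, cell cycle and photosynthesis.

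In the growing zones the members' median changed little through the night and the first hours of its extension, was high at 14 h, and was low again at 24 h, though some members were up by 6 h. The 14 h mean exceeded the end-of-day mean by 1.56 to 5.44 in the division zone, with a median of 2.20. The elongation zone differences were 1.56 to 5.08, with a median of 2.01. From the end of the day to the end of the night the median difference was 0.14 in the division zone and 0.30 in the elongation zone, and from the end of the night to 6 h it was 0.20 and 0.27. Between 14 and 24 h every member was lower in both zones, by a median of 1.91 in the division zone and 1.73 in the elongation zone. The 24 h mean then differed from the end-of-night mean by -0.48 to 0.50 in the division zone and by -0.54 to 0.48 in the elongation zone.

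**Figure D1:**
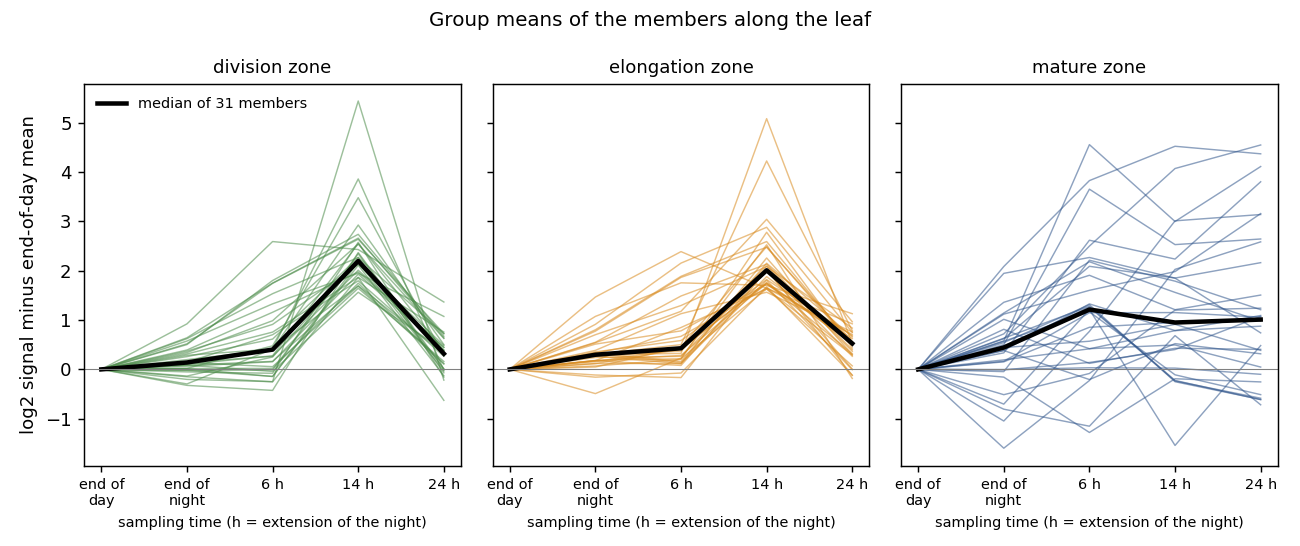
Group mean of each member minus its end-of-day mean (log2 signal, vertical axis) at 5 sampling times (horizontal axis), 1 panel per zone, with thin lines for the 31 members and the thick line for their median. The median reached 2.20 and 2.01 at 14 h for the division and elongation zones and was back at 0.32 and 0.52 at 24 h, while in the mature zone it was 1.21 at 6 h, 0.95 at 14 h and 1.01 at 24 h.

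The working description of the members as peaking at 14 h held for most of them. The highest mean was that of 14 h in 30 of 31 members in the division zone and in 29 of 31 in the elongation zone. Every 14 h array lay above every other array of the zone for 30 members in the division zone, against 10.8% of all probe sets, and for 29 in the elongation zone, against 7.38%. Since the members were chosen on these arrays, nothing is read from that gap. The exceptions were Zm.1075.1.A1_at, highest at 6 h in both zones, and Zm.6522.2.A1_a_at, highest at 6 h in the elongation zone. These names, and others outside the rule for named members, were chosen after the values were seen.

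The thresholds cut through a continuous range. Among the members, 9 lay within 0.1 of a threshold: 1 had a 14 h difference of 1.56 in the division zone, 1 had 1.56 in the elongation zone, and the others had 24 h differences of 0.44 to 0.50 in the division zone or 0.43 to 0.48 in the elongation zone. A further 18 probe sets missed 1 threshold by under 0.1. Their missed 14 h differences were 1.50 (below the threshold before rounding) and 1.41 to 1.48, and their missed 24 h differences were 0.51 to 0.56 and 0.53 to 0.58. They include lip15, which encodes a leucine zipper protein, with a 14 h difference of 1.42 in the elongation zone. A 6 h mean at least 1 above the end of the night in all 3 zones kept out 4 more, among them AGA3b, an alkaline alpha-galactosidase, whose 6 h differences were 2.11, 2.15 and 1.82 from the base of the leaf upward.

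The time courses in the growing zones fell into 2 kinds, defined here after the values were seen. In 20 members the 14 h mean stood at least 1 above the next highest mean in both zones, a pulse confined to the 14 h samples among the times taken. In 9 of these the means of the other 4 times lay within 0.5 of each other in each zone. In 11 members the 6 h mean was already at least 0.5 above the end of the night in both zones, and that of Zm.1075.1.A1_at stood 2.59 and 2.39 above the end of the day. Zm.10172.1.A1_at and Zm.7150.3.A1_a_at met both descriptions, and Zm.10821.1.A1_at and Zm.17489.1.A1_at met neither.

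The largest pulse was that of Zm.375.1.S1_at. In the division zone it read 4.22, 4.25 and 3.83 at the end of the day, 3.92, 4.06 and 3.72 at the end of the night, 3.61, 3.87 and 4.08 at 6 h, 9.54, 10.43 and 8.65 at 14 h, and 3.76, 3.96 and 3.93 at 24 h. In the elongation zone the 14 h arrays read 8.84, 9.53 and 7.94, while the arrays of the other 4 times lay between 3.55 and 4.37. All 3 arrays at 14 h were far above the rest in both zones, and the levels at the other times were dim.

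Zm.12616.1.S1_at differed in size between the growing zones. Its division zone arrays at 14 h read 7.29, 8.14 and 5.93 and those at the end of the day 5.04, 4.92 and 4.88. Its elongation zone arrays at 14 h read 9.51, 9.14 and 8.27, against 4.73 and 4.76 at the end of the day and 5.14, 5.76 and 5.70 at 24 h. No 14 h array overlapped with the other times, but replicate 3 of the division zone lay below the dim level.

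Zm.10172.1.A1_at read 8.46, 8.54 and 8.07 at 14 h in the division zone, against 4.41, 4.63 and 4.44 at the end of the day and 4.63, 4.46 and 4.36 at 24 h. Elongation zone arrays read 8.04, 8.57 and 7.70 at 14 h, against 5.75 and 5.41 at the end of the day and 5.38, 5.67 and 5.13 at 24 h. The 14 h arrays stood clear of all others in both zones. Zm.10253.1.A1_at read 9.29, 9.42 and 8.63 at 14 h in the division zone, against 5.75, 5.58 and 5.56 at the end of the day and 5.98, 5.79 and 5.96 at 24 h. Its elongation zone arrays read 9.31, 9.06 and 8.07 at 14 h, against 6.19 and 5.88 at the end of the day, again with no overlap.

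The members of cluster Zm.9389 belonged to the second kind. In the division zone Zm.9389.2.A1_x_at read 6.71, 6.50 and 6.34 at the end of the day, 6.87, 6.95 and 7.25 at the end of the night, 8.21, 8.30 and 8.45 at 6 h, 9.20, 9.92 and 8.65 at 14 h, and 7.14, 7.10 and 7.34 at 24 h. Its level thus stood higher at each sampling up to 14 h, and the lowest 14 h array exceeded the highest 6 h array by 0.20. In the elongation zone the 6 h arrays read 9.04, 8.86 and 9.28 and the 14 h arrays 9.74, 10.23 and 9.39, a gap of 0.10. Zm.1075.1.A1_at read 10.23, 10.05 and 10.42 at 6 h and 10.08, 10.29 and 9.84 at 14 h in the division zone, where the 2 times overlapped. In the elongation zone its 6 h arrays, at 11.01, 11.12 and 11.19, all lay above the 14 h arrays, at 10.41, 10.54 and 10.13.

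**Figure D2:**
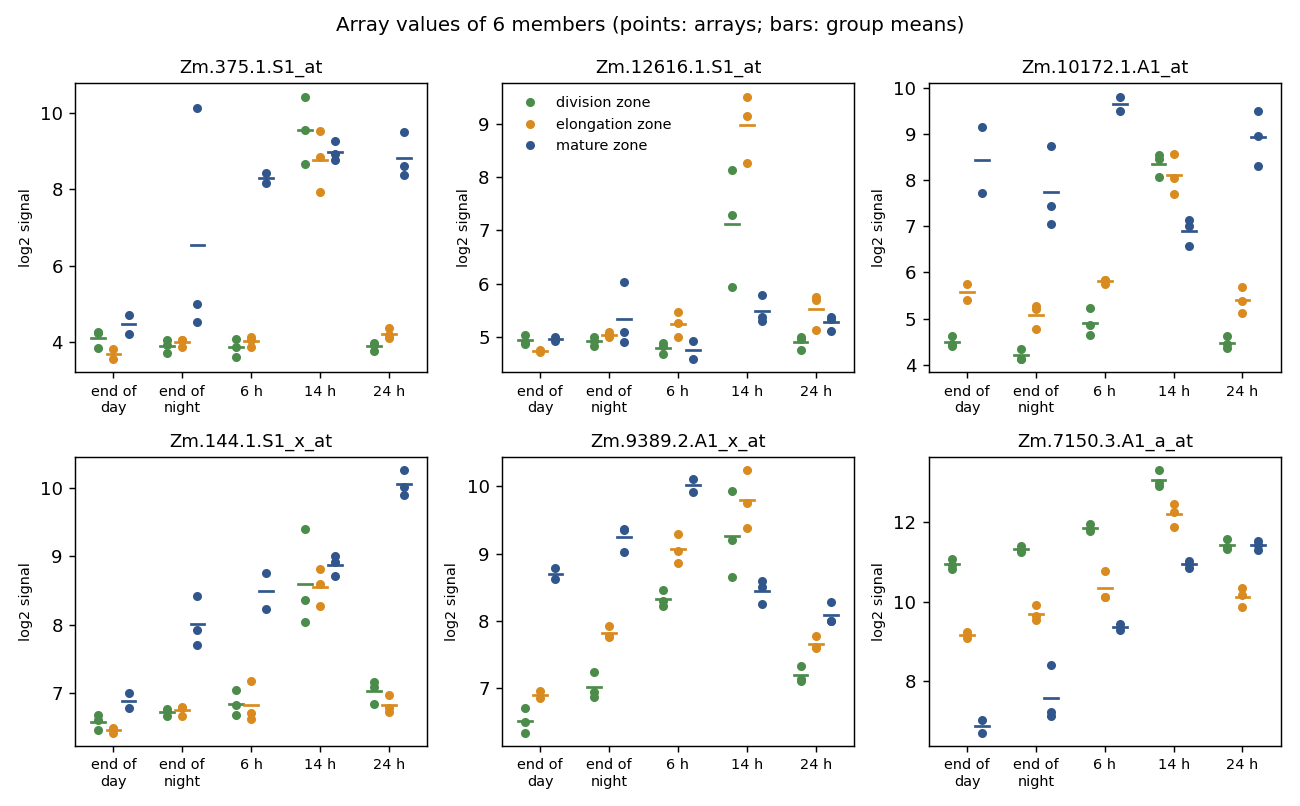
Log2 signal (vertical axis) of 6 members at 5 sampling times (horizontal axis), with points for single arrays and bars for group means, coloured by zone. Zm.375.1.S1_at stood at 8.65 to 10.43 in the division zone at 14 h and at no more than 4.25 at the other times, and its mature zone arrays at 6, 14 and 24 h lay between 8.15 and 9.49.

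The named member, Zm.144.1.S1_x_at (mtl2), read 6.68, 6.61 and 6.46 at the end of the day, 6.75, 6.77 and 6.67 at the end of the night, 6.82, 6.68 and 7.04 at 6 h, 8.03, 9.39 and 8.35 at 14 h, and 7.09, 7.17 and 6.84 at 24 h in the division zone. Elongation zone arrays of it read 6.42 and 6.50 at the end of the day, 8.59, 8.81 and 8.27 at 14 h, and 6.72, 6.79 and 6.97 at 24 h. The 14 h arrays were the highest in both zones, and replicate 2 was the highest of them. The array holds a second probe set for the same gene, Zm.144.2.A1_at, whose 14 h mean differed from the end-of-day mean by 0.02 in the division zone and 0.11 in the elongation zone. That probe set was dim in every group, between 4.07 and 4.72, so it gives no reading of the gene's change. Its counterpart among the members carries the _x_at ending, and its signal could include related sequences.

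Other probe sets of the members' clusters did not always follow them. There were 19 such probe sets in 6 clusters, and in 4 of these the 14 h mean stood at least 1 above the end of the day in both growing zones. The cluster of Zm.7150.3.A1_a_at had 8, of which Zm.7150.4.A1_x_at had differences of 1.26 and 2.12 and Zm.7150.2.A1_a_at 0.06 and -0.29. The same held in the mature zone. There the member Zm.6522.2.A1_a_at differed by 1.85 between the end of the day and 14 h. Of its cluster, Zm.6522.1.A1_x_at differed by 1.49 and Zm.6522.2.A1_at by -1.32.

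The 3 replicates at 14 h differed in a way the members shared. In the division zone replicate 3 gave the lowest of the 3 values in 25 of 31 members, and in the elongation zone in 26 of 31. Over all probe sets this share was 30.1% and 26.5%. Both held for 22 members, against 10.2% of all probe sets. Replicate 2 gave the highest value in 26 members in the division zone and 20 in the elongation zone. Of all probe sets this held for 35.6% and 34.9%. The median range over the 3 arrays was 0.79 in the division zone and 0.73 in the elongation zone. The pools at 14 h were therefore not at 1 level, and why was not tested. Over 17555 probe sets, the deviations of same-numbered 14 h arrays from their group means correlated between the growing zones at 0.140, 0.457 and 0.361 for replicates 1 to 3, so the zones are not shown to be separate readings of this spread. Leaving out replicate 3 at 14 h gave 32 members for the division zone array and 37 for the elongation zone array.

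Many members could barely be read away from 14 h. In 12 of 31 the group means of the other 4 times were dim in both growing zones, and 10 of these 12 lay above the dim level at 14 h in both. A difference from a dim level is compressed on this scale. Of the 12, those below the dim level at 14 h were Zm.2301.1.A1_at and Zm.11657.1.A1_at. In end-of-day mature leaf, 6 of the 12 lay above the dim level and 6 below. Zm.2301.1.A1_at lay below the dim level in every group mean. Its 14 h arrays in the elongation zone read 7.20, 4.50 and 4.94, so replicate 1 alone was above it. Those of Zm.11657.1.A1_at read 7.47, 5.19 and 5.28, again with replicate 1 alone above the dim level.

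Along the leaf, most members were already higher in the mature zone before the night began. At the end of the day the mature zone mean exceeded both growing zone means in 28 of 31 members, and in 16 by at least 1. The median difference was 1.66 from the division zone and 1.49 from the elongation zone. At 14 h this order was mixed, with the mature zone above both growing zones in 16 members and below both in 11. The choice of members favoured growing zone levels that were low at the end of the day and high at 14 h. No share over all probe sets was determined, so these counts only describe the members. The exceptions at the end of the day were Zm.7150.3.A1_a_at, Zm.17489.1.A1_at and Zm.783.1.S1_at. The first of these read 11.09, 10.82 and 10.94 in the division zone, 9.24 and 9.09 in the elongation zone, and 6.71 and 7.04 up in mature leaf. It thus stood lower with distance from the leaf base, with no overlap between zones. Zm.1075.1.A1_at read between 13.74 and 13.96 on every mature zone array, close to the highest value of the table, 14.41, so a rise there might not be seen.

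The 14 h peak of the growing zones was not the common time course of the mature zone. There the highest mean fell at 6 h in 13 members, at 24 h in 10, at 14 h in 5, at the end of the night in 2 and at the end of the day in 1. The 13 include the 4 repeated readings of cluster Zm.9389, and Zm.1075.1.A1_at, whose mature zone means, 13.79 to 13.92, barely differed. The share of all probe sets highest at each time was not determined, so no preferred time is read from these counts. All 14 h arrays lay above every other mature zone array in 1 member, or 3.23%, against 1.46% of all probe sets. This was Zm.17489.1.A1_at, which read 7.62, 6.97 and 7.01 at 14 h, and the highest of its other arrays, at 6 h, read 6.96. The 5 members highest at 14 h were this one, Zm.375.1.S1_at, Zm.12616.1.S1_at, Zm.19025.1.S1_at and Zm.12104.1.A1_at. Their margins over the next highest mean were, in this order, 0.34, 0.15, 0.14, 0.69 and 0.004. Zm.12616.1.S1_at was dim in every mature zone group. Over all members the median difference from the end of the day was 1.21 at 6 h, 0.95 at 14 h and 1.01 at 24 h.

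**Figure D3:**
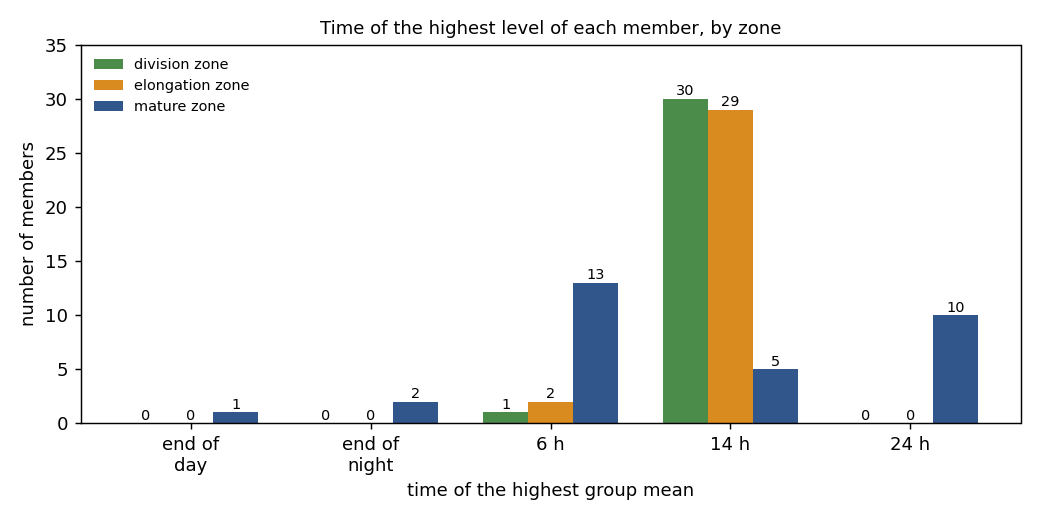
Number of members (vertical axis, of 31) whose highest group mean fell at each sampling time (horizontal axis), with 1 bar per zone. The division and elongation zone bars stand at 30 and 29 for 14 h, which the choice of members favoured, and the mature zone bars at 13 for 6 h, 5 for 14 h and 10 for 24 h. The 13 include the 4 repeated readings of cluster Zm.9389.

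In the mature zone, 18 of 31 members rose from the end of the day to 14 h, 1 fell and 12 were not called (limma over all 17555 probe sets, Benjamini-Hochberg adjusted p under 0.05). Of all probe sets, 34.0% were called higher and 26.8% lower, so the members' 58.1% stood above that background for the higher direction, and their 3.23% below it for the lower. The members' median difference was 0.95, against 0.11 for all probe sets. Of the 66 reporter probe sets, which have no maize target, 21 were called higher and 0 lower in this comparison, by at most 0.76, and 0 of the 18 called members rose by less than that. Estimated array weights in the mature zone lay between 0.0983 and 0.823, where 1 is the average array, so an SE shared with the growing zones can be too small there. The base markers were higher at 14 h in this comparison too, at a summed 9.94 to 10.27 against 8.87 to 9.03. Their part in the members' rise was not tested. Reporter probe sets called higher and lower numbered 1 and 1 from 6 to 14 h, and 0 and 6 from 14 to 24 h. They numbered 7 and 2 from the end of the night to 24 h, and 3 and 0 over the normal night.

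Zm.375.1.S1_at read 4.71 and 4.21 at the end of the day in the mature zone and 8.94, 8.76 and 9.25 at 14 h. It was also high at 6 h, at 8.15 and 8.42, and at 24 h, at 8.38, 8.61 and 9.49. The difference of 14 h from the end of the day was 4.52 ± 0.80 (SE, n = 3 against 2, limma adjusted p = 1.1e-05), and that of 14 h from 6 h, 0.70 ± 0.80, was not called. In the growing zones the same transcript was dim at 6 and 24 h.

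Zm.7150.3.A1_a_at read 6.71 and 7.04 at the end of the day in the mature zone, 9.29 and 9.45 at 6 h, 10.85, 11.03 and 10.95 at 14 h, and 11.43, 11.30 and 11.54 at 24 h. Each of these groups lay above the one before, with no overlap. It rose by 4.07 ± 0.24 to 14 h (SE, n = 3 against 2, limma adjusted p = 8.2e-16) and by 1.57 ± 0.24 between 6 and 14 h (limma adjusted p = 2.6e-06). The other probe sets of its cluster differed by -0.04, in one that was dim, to 3.46 between the end of the day and 14 h. Zm.7150.3.A1_x_at, which was not dim, differed by 0.62.

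Zm.9837.1.A1_at read 8.26 and 8.74 at the end of the day, 7.39, 7.70 and 7.26 at the end of the night, 9.24 and 9.30 at 6 h, 11.70, 11.33 and 11.51 at 14 h, and 11.61, 11.77 and 11.55 at 24 h. It was lowest at the end of the night, and its 14 and 24 h arrays overlapped. The rise to 14 h was 3.01 ± 0.17 (SE, n = 3 against 2, limma adjusted p = 4.6e-16). Zm.11657.1.A1_at read 4.53 and 4.88 at the end of the day and 7.12, 8.13 and 7.86 at 14 h, a rise of 3.00 ± 0.42 (limma adjusted p = 1.9e-07). Its 6 h arrays, at 9.03 and 9.50, and its 24 h arrays, at 8.94, 9.23 and 8.28, all stood above those of 14 h.

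Zm.10253.1.A1_at read 9.74 and 8.63 at the end of the day, 10.41, 10.75 and 10.48 at the end of the night, 11.02 and 11.17 at 6 h, 10.59, 10.22 and 10.38 at 14 h, and 11.01, 10.57 and 10.50 at 24 h in the mature zone. Its end-of-day arrays were the lowest and its 6 h arrays the highest. It rose by 1.21 ± 0.26 from the end of the day to 14 h (SE, n = 3 against 2, limma adjusted p = 0.00013). Without end-of-day replicate 2 that difference was 0.66 and not called (limma adjusted p = 0.053).

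The named member mtl2, Zm.144.1.S1_x_at, read 7.00 and 6.79 at the end of the day, 8.41, 7.70 and 7.92 at the end of the night, 8.23 and 8.75 at 6 h, 8.71, 9.00 and 8.91 at 14 h, and 10.25, 9.89 and 10.01 at 24 h in the mature zone. The end-of-day arrays were the lowest and the 24 h arrays the highest, without overlap with any other time. It rose by 1.98 ± 0.24 from the end of the day to 14 h (SE, n = 3 against 2, limma adjusted p = 1.4e-08) and by a further 1.18 ± 0.21 from 14 to 24 h (n = 3 against 3, limma adjusted p = 7.6e-05). In the growing zones its mean was lower at 24 h than at 14 h by 1.56 and 1.73.

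Zm.10172.1.A1_at was the member that fell. In the mature zone it read 9.15 and 7.73 at the end of the day, 8.73, 7.43 and 7.05 at the end of the night, 9.50 and 9.81 at 6 h, 7.13, 7.00 and 6.57 at 14 h, and 9.51, 8.95 and 8.31 at 24 h. Its 14 h arrays were lower than those of the end of the day, 6 h and 24 h, at the hour when its growing zone arrays were highest. The 14 h difference was -1.54 ± 0.36 from the end of the day (SE, n = 3 against 2, limma adjusted p = 0.00039) and -2.76 ± 0.36 from 6 h (limma adjusted p = 1.8e-07), and the 24 h difference from 14 h was 2.03 ± 0.32 (limma adjusted p = 9.1e-06). The first of these was -0.83 (limma adjusted p = 0.087), and no longer called, when replicate 1 of the end-of-day arrays was left out.

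The 4 members of cluster Zm.9389 were not called between the end of the day and 14 h, with differences of -0.25 to -0.11. Zm.9389.2.A1_x_at read 8.78 and 8.62 at the end of the day, 9.36, 9.35 and 9.02 at the end of the night, 10.11 and 9.91 at 6 h, 8.59, 8.26 and 8.50 at 14 h, and 7.99, 8.28 and 7.99 at 24 h. The 6 h arrays were the highest of the mature zone. Its 14 h arrays lay below both end-of-day arrays, though the difference was not called. Zm.9389.1.A1_a_at read 9.36 and 9.23 at the end of the day, 10.68 and 10.44 at 6 h, and 9.18, 8.88 and 9.13 at 14 h. Zm.9389.1.A1_x_at read 8.74 and 8.31 at the end of the day, 9.96 and 9.65 at 6 h, and 8.45, 8.12 and 8.33 at 14 h. In both, the 6 h arrays were again the highest of these 3 times, and only the second overlapped between the end of the day and 14 h. In 3 of the 4, the condition at 6 h was met in the mature zone alone, so comparisons with 6 h or the end of the night are not tested for them. The fourth, Zm.9389.3.A1_a_at, was lower at 14 h than at 6 h by 1.28 ± 0.20, with arrays at 6.54, 6.35 and 6.38 against 7.86 and 7.54 (limma adjusted p = 4.4e-06).

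**Figure D4:**
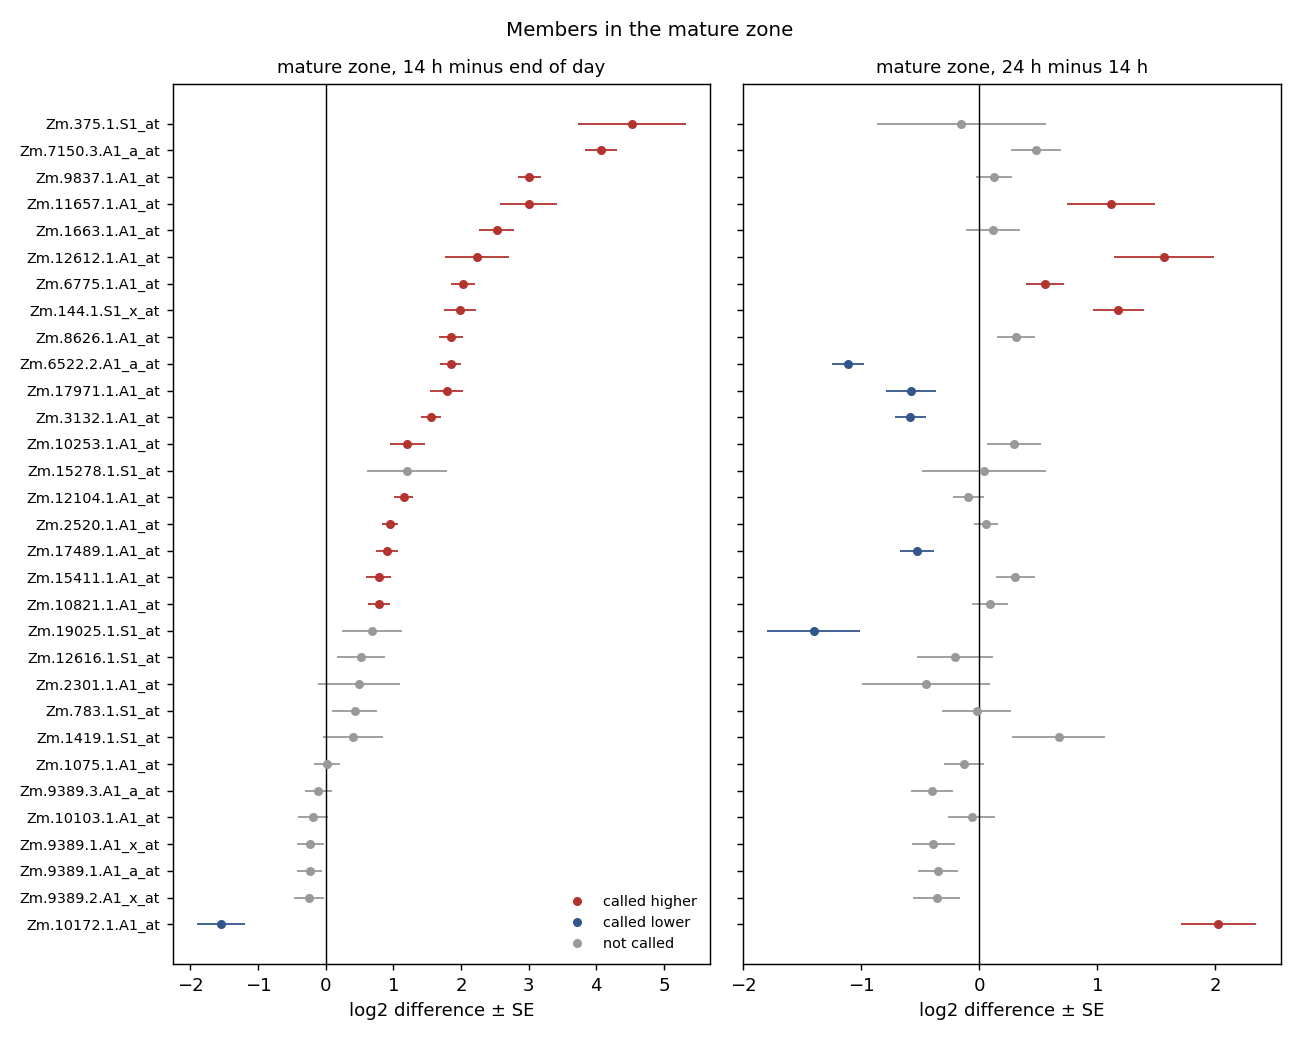
Log2 difference with its SE (horizontal axis) of the 31 members (vertical axis) in the mature zone, for 14 h minus the end of the day on the left and 24 h minus 14 h on the right, coloured by call. From the end of the day to 14 h, 18 were called higher and 1, Zm.10172.1.A1_at, lower, while from 14 to 24 h 5 were called in each direction.

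From 6 to 14 h the mature zone members did not move together. Of 28 tested, 5 rose, 8 fell and 15 were not called, with a median difference of 0.09 against 0.03 for all probe sets. All probe sets were called higher in 20.3% and lower in 16.0%, so the members' share of falls, 28.6%, was the larger, and their share of rises, 17.9%, was close to the background. In the growing zones the 14 h mean exceeded the 6 h mean by a median of 1.66 and 1.46, as the choice of members favoured. Of the 18 members that rose from the end of the day to 14 h, 6 were lower at 14 h than at 6 h, 9 were not called between 6 and 14 h, and 3 rose in both comparisons. Of all probe sets, 2.75% were higher in the first and lower in the second, 18.8% higher and not called, and 12.5% higher in both, and the comparisons share the 14 h arrays. The 3 were Zm.7150.3.A1_a_at, Zm.9837.1.A1_at and Zm.6775.1.A1_at. The last read 9.27 and 9.64 at the end of the day, 8.82 and 9.64 at 6 h, and 11.66, 11.40 and 11.39 at 14 h. It was no higher at 6 h than at the end of the day, and between 6 and 14 h it rose by 2.25 ± 0.18 (SE, n = 3 against 2, limma adjusted p = 1.3e-11). In the fit with array weights 4 of the 28 members fell from 6 to 14 h. With the mature zone arrays alone, or without either of the 6 h arrays, 5 fell. The share of all probe sets that fell was not determined for these fits, so the larger share of falls holds for the main fit only.

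Between 14 and 24 h, when the growing zone levels returned, the mature zone members split evenly. Of 31, 5 rose, 5 fell and 21 were not called, with a median difference of -0.02 against -0.01. Over all probe sets 16.8% rose and 13.7% fell, and the members' 16.1% in each direction lay near that background. Those that rose were Zm.10172.1.A1_at, Zm.12612.1.A1_at, mtl2 (Zm.144.1.S1_x_at), Zm.11657.1.A1_at and Zm.6775.1.A1_at. Those that fell were Zm.19025.1.S1_at, Zm.6522.2.A1_a_at, Zm.3132.1.A1_at, Zm.17971.1.A1_at and Zm.17489.1.A1_at. The largest fall was that of Zm.19025.1.S1_at, which read 8.60, 10.44 and 9.84 at 14 h and 8.82, 8.53 and 7.32 at 24 h. The groups overlapped, and the difference was -1.40 ± 0.39 (SE, n = 3 against 3, limma adjusted p = 0.0064). Zm.12612.1.A1_at read 7.10, 7.71 and 7.48 at 14 h and 10.06, 8.58 and 8.35 at 24 h, a rise of 1.57 ± 0.42 without overlap (limma adjusted p = 0.0049). With array weights 2 members rose and 2 fell, and without replicate 3 of 24 h 2 fell. The call of Zm.11657.1.A1_at, 1.11 ± 0.37 (limma adjusted p = 0.022), was lost with array weights, with the compared groups alone, and without replicate 1 of 14 h or replicate 1 or 2 of 24 h (limma adjusted p = 0.063 to 0.29).

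At the hour when the normal night ends, 17 of 28 members tested were higher after 24 h of extension in the mature zone, 2 were lower and 9 were not called. Of all probe sets 31.6% were called higher and 26.3% lower, against 60.7% and 7.14% of these members, and the median difference was 0.88 against 0.04. In both growing zones these same means lay at most 0.5 above those of the end of the night, as the choice required. Both Zm.9837.1.A1_at, at 4.19 ± 0.15 (SE, n = 3 against 3, limma adjusted p = 4.9e-21), and Zm.6775.1.A1_at, at 4.18 ± 0.16 (limma adjusted p = 2.2e-20), were higher by over 4. The latter read 7.93, 7.83 and 7.80 at the end of the night and 12.00, 12.11 and 12.01 at 24 h, with no overlap. The members called higher here and from the end of the day to 14 h numbered 14 of 28, against 20.4% of all probe sets. The 2 that fell were Zm.6522.2.A1_a_at, by 1.21 ± 0.14 (limma adjusted p = 3.4e-09), and Zm.9389.3.A1_a_at, by 1.08 ± 0.18 (limma adjusted p = 3.4e-06). When replicate 3 of the end-of-night arrays was left out, 14 members rose and 4 fell.

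Over the normal night the mature zone calls were fewer. From the end of the day to its end, 10 of 28 members rose, 2 fell and 16 were not called, with a median difference of 0.38 against 0.02. All probe sets rose in 20.2% and fell in 20.3%, against 35.7% and 7.14% of the members. Without end-of-night replicate 1, or with the mature zone arrays alone, 6 members rose, and with the compared groups alone 4. The share of all probe sets was not determined for these fits, so the larger share of rises holds for the main fit only. Zm.6522.2.A1_a_at read 11.12 and 11.47 at the end of the day and 13.18, 13.25 and 13.30 at the end of the night, a rise of 1.95 ± 0.15 without overlap (SE, n = 3 against 2, limma adjusted p = 4.8e-12). Of its cluster, Zm.6522.1.A1_x_at had means of 9.78 and 11.61 at these times, but Zm.6522.2.A1_at had 9.03 and 8.91. The 2 that fell were Zm.6775.1.A1_at, by 1.60 ± 0.18 (limma adjusted p = 1.3e-08), and Zm.9837.1.A1_at, by 1.05 ± 0.17 (limma adjusted p = 7.9e-06). These were the members with the largest difference of 24 h from the end of the night.

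Replicate 1 of the end-of-night arrays decides several of these values. In the mature zone it exceeded both other replicates by at least 1 in 7 of 31 members, or 22.6%, against 0.689% of all probe sets. The summed base markers were 9.17 on this array, against 9.18 and 10.63 on replicates 2 and 3. Zm.375.1.S1_at read 10.13, 4.98 and 4.52, and Zm.15278.1.S1_at read 11.61, 7.75 and 7.58. Replicate 1 of each thus lay above all arrays at 14 and 24 h, and the other 2 near or below those of the end of the day. The remaining 5 were Zm.2301.1.A1_at, Zm.783.1.S1_at, Zm.1419.1.S1_at, Zm.10172.1.A1_at and Zm.7150.3.A1_a_at. Zm.375.1.S1_at rose over the night by 2.09 ± 0.80 with this array (limma adjusted p = 0.036) and differed by 0.29 without it (limma adjusted p = 0.60). Without it, 6 members rose and 4 fell over the night, while 17 rose and 2 fell from the end of the night to 24 h, as with it. Replicate 3 of the end-of-night arrays, in turn, gave the lowest of the 3 mature zone values in 25 of 31 members, or 80.6%, against 52.5% of all probe sets.

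Of the 31 members, 25 were called in at least 1 mature zone comparison and 6 in none that was tested, while 80.8% of all probe sets were called in at least 1 of the 5. The 6 were Zm.12616.1.S1_at, Zm.2301.1.A1_at, Zm.1075.1.A1_at and 3 of cluster Zm.9389. Zm.12616.1.S1_at, among the largest pulses of the growing zones, read 5.01 and 4.92 at the end of the day and 5.30, 5.79 and 5.37 at 14 h in the mature zone. These did not overlap, but all lay below the dim level, and the difference of 0.52 ± 0.36 was not called (limma adjusted p = 0.21).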

How the data were processed

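RNA of maize leaf zones was hybridised to the Affymetrix maize array, and the deposited values are the authors' log2 signal intensities. They come from RMA, per the submitters' processing notes. Its version was not given in the sources used here, nor were its settings. Values were used as deposited, and ran from 2.56 to 14.41. Of 45 labelled arrays, 42 have values: replicate 3 of the end of day in the elongation and mature zones and replicate 2 of 6 h in the mature zone hold none. Of 17734 probe sets, 113 controls and 66 reporter probe sets were left out. The annotation's 1108 named genes were matched by identifier to RefSeq's table (Zm-B73-REFERENCE-NAM-5.0), where 1060 were found.

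Members and gene lists were chosen with earlier results of these data known. Group means of 15 groups were fitted with limma 3.58.1 in R 4.3.3 (lmFit, eBayes; 27 residual degrees of freedom), which gives 1 spread per probe set over all groups, and 5 mature zone contrasts were tested, two-sided, with Benjamini-Hochberg adjustment over 17555 probe sets and a threshold of 0.05. Members were found with Python 3.11.15 and pandas 2.3.3. The fit was tested on simulated data. The number of arrays limits the precision, and replicates are pools of plants. Named by rule were the member with a gene symbol, the 4 unnamed members with the highest and the 4 with the lowest mature zone difference of 14 h from the end of the day, and the 4 with the largest mean growing zone difference. Alternatives were centring of arrays, a trended robust spread, array weights, fewer arrays in the fit, a filter on dim probe sets, the replicate number as a block, leaving out single arrays, and other thresholds of the choice.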

Additional observations from a re-analysis of the deposited data

Results flagged for a closer look

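In 22 cases every mature zone array moved opposite to every array of both growing zones under the same contrast. In each the difference between zones was not tested. No share over all probe sets was determined for such cases, so their number is a description. For 14 h minus the end of the day, Zm.10172.1.A1_at differed by -1.54 in the mature zone against 3.86 and 2.53 in the division and elongation zones. Zm.9389.2.A1_x_at differed by -0.25 against 2.74 and 2.88, and Zm.9389.1.A1_a_at by -0.24 against 2.64 and 2.48, and neither mature zone difference was called.

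For 24 h minus 14 h, all growing zone differences were negative and 8 members went the other way in the mature zone. The mature zone differences were 2.03 for Zm.10172.1.A1_at, 1.57 for Zm.12612.1.A1_at, 1.18 for Zm.144.1.S1_x_at (mtl2), 1.11 for Zm.11657.1.A1_at and 0.56 for Zm.6775.1.A1_at, all called. The call of Zm.11657.1.A1_at was lost with array weights (limma adjusted p = 0.29), with the compared groups alone (0.065), and without 14 h replicate 1 (0.13), 24 h replicate 1 (0.063) or 24 h replicate 2 (0.11). The differences were 0.67 for Zm.1419.1.S1_at, 0.48 for Zm.7150.3.A1_a_at and 0.31 for Zm.8626.1.A1_at, which were not called.

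For 14 h minus 6 h, 11 members were higher in the growing zones and lower in the mature zone, among them the 4 repeated readings of cluster Zm.9389. The mature zone differences called were -2.76 for Zm.10172.1.A1_at, -1.56 for Zm.11657.1.A1_at, -1.28 for Zm.9389.3.A1_a_at, -1.12 for Zm.1663.1.A1_at, -0.70 for Zm.10253.1.A1_at, -0.62 for Zm.3132.1.A1_at and -0.54 for Zm.15411.1.A1_at. The call of Zm.10253.1.A1_at was lost with array weights (limma adjusted p = 0.24), with the mature zone arrays alone (0.10), and without 14 h replicate 2 (0.093) or 3 (0.061) or 6 h replicate 1 (0.083) or 3 (0.16). That of Zm.11657.1.A1_at was lost with array weights (limma adjusted p = 0.12) and without 6 h replicate 3 (0.057). The difference of Zm.8626.1.A1_at, -0.24, was not called. Those of Zm.9389.2.A1_x_at, -1.56, and of Zm.9389.1.A1_x_at and Zm.9389.1.A1_a_at, both -1.50, are descriptions. The choice of members fixed the growing zone side of the contrast with the end of the day. It favoured that side of both 24 h minus 14 h and 14 h minus 6 h.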

How the results depend on the processing

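The number of members, 31, was 41 with each array centred on its median, 35 with group medians and 35 without the condition at 6 h. It was 90 with a 14 h threshold of 1, 15 with 2, 5 with a 24 h threshold of 0 and 107 with 1. Leaving out single arrays gave 26 to 37. Centring kept all 31 members, but group medians kept only 23 of them. In the mature zone, members lower at 14 h than at 6 h, 8 in the report, numbered 4 with array weights and 5 with the mature zone arrays alone. From 14 to 24 h, 5 rose and 5 fell; with array weights 2 rose and 2 fell, and 2 fell both with the mature zone arrays alone and with the compared groups alone. Over the normal night 10 rose, but 6 with the mature zone arrays alone and 4 with the compared groups alone. Leaving out single arrays gave 17 to 19 higher and 0 to 1 lower for 14 h against the end of the day (0 with end-of-day replicate 1 left out, which decides Zm.10172.1.A1_at), 5 to 6 and 5 to 7 for 14 h against 6 h, 3 to 6 and 2 to 5 for 24 h against 14 h, 14 to 17 and 2 to 4 for 24 h against the end of the night, and 6 to 12 and 2 to 4 for the normal night. The sign turned in 5 values of named members, none of them called. Leaving out 24 h replicate 1 gave 0.07 for Zm.375.1.S1_at from 14 to 24 h (range over single arrays -0.48 to 0.07). In the contrast of 24 h with the end of the night it gave 0.01 for Zm.12616.1.S1_at and -0.01 for Zm.10253.1.A1_at (ranges -0.28 to 0.27 and -0.01 to 0.25), and leaving out end-of-night replicate 1 gave 0.27 for the former. Leaving out end-of-day replicate 1 gave 0.01 for Zm.10172.1.A1_at over the normal night (range -1.42 to 0.01). Of the other values of named members, 32 lost their call and 3 gained one. The causes were not tested. Fits on fewer arrays or fewer degrees of freedom have less to estimate the spread from.

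With the replicate number as a block the counts were the same, except that 9 members rose over the normal night. Same-numbered mature zone arrays of the times compared correlated between -0.275 and 0.119 in their deviations from the group means, so the numbers do not pair them in these contrasts. Between zones at one time, the correlations were -0.03 to 0.457 for division with elongation, -0.087 to 0.194 for division with mature and -0.133 to 0.206 for elongation with mature. No contrast tested compares zones.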
